A study of Mus musculus with 20 samples.

Results

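Microglia sorted 2 weeks after full transection (FT) of the mouse spinal cord were compared with microglia sorted 72 h after the same lesion, across all 16810 genes of the deposited table. The members were taken by their group labels, 3 samples at each time, which is 6 of the 20 samples of the series. All samples came from mice heterozygous for CX3CR1+/eGFP on a C57BL/6 background, in which enhanced green fluorescent protein is expressed from the *Cx3cr1* locus in microglia and also in blood monocytes. The sorted mice were adult males, and FT was made at a mid-thoracic level. Cells with high eGFP were sorted from a short cord segment centred on the lesion, so that the gate could also hold infiltrating macrophages. The other samples were from non-injured (NI) mice and from mice with a lateral hemisection (HS), and they carried the same allele. The methods count more mice than samples, and which mice went into which sample is not given in the sources used here, so that p-values measure the spread between these samples.

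Microglia are the resident macrophages of the spinal cord, kept by local division and marked at rest by genes such as *P2ry12* and *Tmem119*. After a lesion they divide, take up myelin and cell debris, and secrete chemokines, complement and proteases, while monocytes enter from the blood. Division is carried by gene programs that follow each other through the cycle, first DNA copying and then chromosome condensation and mitosis. The comparison asks which early programs had ended by 2 weeks and which had started.

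The values were reads per gene scaled by the authors to a common library size (CPM). The FT 72 h samples held 8547429, 3872918 and 12460162 reads on these genes and the FT 2 week samples 11565342, 12382288 and 12924021 reads, so that the second FT 72 h sample was the shallowest and a single read in it was worth 0.292 CPM. Log2 fold changes are given as FT 2 weeks minus FT 72 h with their standard error (SE), on log2(CPM + 0.5), and understate the change of genes near 0. A gene was called differentially expressed (DE) at an adjusted p under 0.05 over all genes (limma, Benjamini-Hochberg) and a change of at least 2-fold.

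Some libraries stood apart. In FT 2 week replicate 1 the summed level of 37 NF-kB, cytokine and immediate-early genes was far below the rest of its group (3585, 16990.4 and 16777 CPM in replicates 1 to 3), and it was 7766, 7154 and 8431 CPM at 72 h. The same library had the lowest sums of its group for heat-shock proteins (6596, 12314 and 10723 CPM in replicates 1 to 3), oligodendrocyte markers (564, 2656 and 1587 CPM) and astrocyte markers (272, 479 and 349 CPM). FT 72 h replicate 1 had the highest sum of 18 monocyte and macrophage markers (1947, 720.0 and 770.1 CPM). The columns of the table summed to 777426 to 830481 CPM in NI and to 986954 to 1131226 CPM in the 6 samples compared, so that a level set beside NI depends on the scaling.

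The sorted cells held microglial RNA at both times. The 25 homeostatic microglia genes summed to 37046, 39639 and 45115 CPM at 72 h and 42189, 34411 and 30035 CPM at 2 weeks, and none of them was DE (median log2 fold change -0.089, against 0.045 over all genes). When 1 library was left out, 2 of them were called lower without FT 72 h replicate 1, 2 without FT 2 week replicate 1, and 1 was called higher without FT 72 h replicate 3. *P2ry12*, a purinergic receptor of ramified microglia, was at 1631, 2882 and 2371 CPM at 72 h and 2319, 1709 and 1834 CPM at 2 weeks. *Tmem119*, a microglia surface protein, was at 619, 515 and 562 CPM at 72 h and 698, 720.2 and 654 CPM at 2 weeks. The groups overlapped for *P2ry12* and lay side by side for *Tmem119*, and the log2 fold changes were -0.21 ± 0.34 (95% interval -0.92 to 0.51) and 0.29 ± 0.22 (-0.16 to 0.74). Both genes were lower in all 6 FT samples than in the 3 NI samples (5085, 3845 and 3739 CPM for *P2ry12* and 1196, 1263 and 1257 CPM for *Tmem119*). *Csf1r*, the receptor of colony-stimulating factor, and *Sall1*, a transcription factor of microglial identity, had changes of -0.035 and 0.23, neither of them DE. Without the fold limit 5 of the 25 homeostatic genes passed the p threshold, against 971 of all 16810 genes. Among the 5 was *Slc2a5*, a fructose transporter (241, 454 and 368 CPM at 72 h, 231, 187 and 164 CPM at 2 weeks, adjusted p = 0.039), with a change under 2-fold (-0.83 ± 0.24).

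At 2 weeks, 640 genes (3.81% of all) were DE relative to 72 h. More of them were lower (450 genes, 2.68% of all) than higher (190 genes, 1.13%). The counts of the gene lists below stand beside these shares. Among lists with a DE member the lowest shares DE were near 3.81%. They were 5.0% (p53 targets), 5.41% (NF-kB and cytokines), 5.56% (heme and iron) and 6.25% (cathepsins and lysosome). In 634 of the 640 the 3 samples at 2 weeks lay beyond all 3 samples at 72 h, a separation that 26.8% of all genes show. The 10 largest falls were those of *Ccnb1*, *Pbk*, *Arg1*, *2810417H13Rik*, *Ccnb2*, *Rrm2*, *Top2a*, *Kif20a*, *Fam64a* and *Cdkn3*, 9 of them genes of cell division. The 10 largest rises were those of *Cxcl13*, *Cxcl9*, *Slc45a3*, *Ccl5*, *Postn*, *C3*, *Itgax*, *Slamf8*, *Madcam1* and *Dkk2*, with 3 chemokines among them. Both rankings are over genes that reached a mean of 5 CPM in 1 of the groups and whose samples did not overlap.

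**Figure D1:**
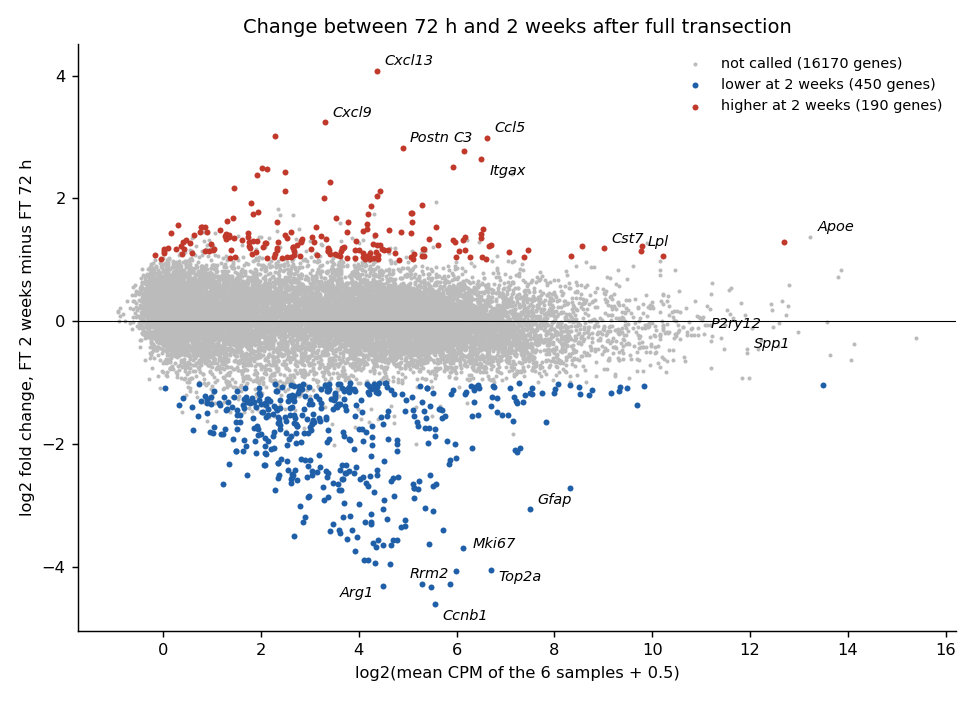
Each point is a gene, with its mean level in the 6 FT samples on the x axis (log2 of CPM + 0.5) and its log2 fold change, FT 2 weeks minus FT 72 h, on the y axis. The 190 genes called higher (red) reach 4.08 with *Cxcl13*, the 450 called lower (blue) reach -4.61 with *Ccnb1*, and *Apoe*, *Spp1* and *P2ry12* are among the genes that were not called (grey).

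Division genes fell as a body. Of 164 genes on 4 lists of DNA replication, cyclins and cell-cycle kinases, mitotic chromosome machinery, and DNA damage repair, 117 fell and none rose, and the median log2 fold change of the 164 was -1.77. Their summed level was 6275, 5429.9 and 5230.1 CPM at 72 h and 1959.5, 1841 and 1767 CPM at 2 weeks, with no overlap. At 1 week it was 1592, 1857 and 1918 CPM and in NI 1656, 1551 and 1554 CPM. The sums at 1 week thus overlapped those of NI, those at 2 weeks lay a little above them, and those at 72 h far above.

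*Ccnb1* (GRCm38 chromosome 13, 100778650 to 100786570, minus strand) encodes cyclin B1, which drives entry into mitosis. It was at 92.6, 103 and 74.8 CPM at 72 h and 5.15, 2.96 and 2.06 CPM at 2 weeks. The late samples lay close to the other low groups, 2.52, 3.79 and 4.42 CPM at 1 week and 3.87, 2.45 and 2.40 CPM in NI. The log2 fold change was -4.61 ± 0.31 (adjusted p = 2.50e-09). *Ccnb2*, the second mitotic cyclin (GRCm38 chromosome 9, 70407692 to 70421547, minus strand), fell from 101, 39.1 and 81.7 CPM to 4.21, 2.61 and 2.60 CPM. Its FT 72 h replicate 2 was the lowest of its group and still above every late sample (-4.28 ± 0.34, adjusted p = 1.94e-08). *Ccna2*, the cyclin of DNA synthesis and early mitosis, fell by less (-3.40 ± 0.28), and so did *Cdk1*, the kinase that these cyclins activate (-2.66 ± 0.22). *Cdk1* was at 84.1, 90.0 and 71.5 CPM at 72 h and 13.3, 10.97 and 13.3 CPM at 2 weeks, where it was above the NI samples (5.06, 6.18 and 5.18 CPM). The S-phase cyclins *Ccne1* (-1.91 ± 0.33) and *Ccne2* (-1.82 ± 0.27), and *Plk1* (-3.89 ± 0.26), a mitotic kinase, were lower as well, and are named here after their values were seen. In all, 28 of 35 genes of the cyclin and kinase list fell. The 7 others were the D-type cyclins, *Cdk2*, *Cdk4*, *Cdk6* and *Cdc25a*. *Ccnd1*, cyclin D1, which couples growth factor signals to the cycle, was at 43.6, 38.3 and 51.7 CPM at 72 h and 37.3, 44.5 and 51.2 CPM at 2 weeks (log2 fold change -0.0067, interval -0.47 to 0.45), and *Ccnd2* had a change of -0.84 ± 0.28 (adjusted p = 0.081).

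The mitotic machinery had the largest share of falls, 49 of 54 genes, with a median of -2.56. *Top2a*, topoisomerase II alpha, which untangles sister chromosomes (GRCm38 chromosome 11, 98992943 to 99024189, minus strand), went from 206, 207 and 172 CPM to 14.2, 8.79 and 11.1 CPM, with 9.12, 7.08 and 6.81 CPM in NI (-4.06 ± 0.22, adjusted p = 1.54e-10). *Mki67*, the gene of the Ki-67 antigen of dividing cells (GRCm38 chromosome 7, 135689784 to 135716361, minus strand), went from 141, 126 and 123 CPM to 9.27, 8.97 and 10.5 CPM. Both of its groups were tight, and it had the lowest adjusted p of the lower genes (-3.69 ± 0.19, adjusted p = 1.14e-10). *Birc5* (survivin, -3.40 ± 0.26) and *Kif11*, a spindle motor (-2.69 ± 0.21), fell too. *Kif20a*, a kinesin of the dividing midzone, was at 48.3, 43.2 and 46.7 CPM at 72 h and 3.46, 2.09 and 2.14 CPM at 2 weeks (-3.95 ± 0.32). The 5 members that were not DE were *Spc24*, *Incenp*, *Kifc1*, *Pttg1* and *Espl1*.

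DNA replication genes fell by a smaller amount on the whole, 28 of 43 genes with a median of -1.43. *Rrm2*, a subunit of ribonucleotide reductase, which makes deoxynucleotides (GRCm38 chromosome 12, 24708241 to 24714146, plus strand), fell from 139.8, 101 and 117 CPM to 8.14, 6.70 and 5.19 CPM (-4.07 ± 0.32, adjusted p = 1.46e-08). *Mcm5*, part of the replicative helicase, fell from 105, 83.8 and 95.4 CPM to 26.0, 17.2 and 13.7 CPM. Its late samples were still above those of NI (9.30, 11.6 and 9.50 CPM), and its log2 fold change was -2.33 ± 0.27 (adjusted p = 3.88e-06). *Cdc6*, which loads that helicase, had 21.97, 15.5 and 15.2 CPM at 72 h and 2.34, 1.57 and 1.99 CPM at 2 weeks (-2.87 ± 0.31), and *Tk1*, thymidine kinase, changed by -3.04 ± 0.27. *Pcna*, the sliding clamp, was not DE (183, 208 and 133 CPM at 72 h and 93.1, 115 and 122 CPM at 2 weeks, -0.65 ± 0.23, adjusted p = 0.11). *2810417H13Rik*, which encodes a small protein that binds the clamp, had the largest fall of a gene outside the lists, from 101, 136 and 93.7 CPM to 4.87, 5.83 and 4.73 CPM (-4.28 ± 0.24, adjusted p = 2.39e-10).

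Repair genes fell in part. Of 32, 12 fell and none rose, and the median was -0.89. *Brca1*, which acts in homologous recombination (GRCm38 chromosome 11, 101488764 to 101551955, minus strand), was at 14.2, 12.3 and 11.7 CPM at 72 h and 1.68, 2.53 and 2.60 CPM at 2 weeks, close to NI (2.26, 3.09 and 2.40 CPM). Its log2 fold change was -2.27 ± 0.26 (adjusted p = 4.57e-06). *Brca2* was at 7.11, 8.76 and 6.41 CPM at 72 h and 7.67, 3.74 and 5.57 CPM at 2 weeks, with overlapping groups and a change of -0.40 ± 0.24 (interval -0.91 to 0.10). *Chek2*, a checkpoint kinase, passed the p threshold but not the fold limit (-0.90 ± 0.25, adjusted p = 0.036), and *Atm*, *Atr*, *Rad50*, *Nbn* and *Parp1* were among the 20 genes that were not DE. Of 20 p53 targets and cell-cycle inhibitors only *Cdkn2d*, an inhibitor of cyclin D kinases, was DE, and it fell with the division genes (-1.24 ± 0.23). *Cdkn1a* (p21) had 103, 70.7 and 87.5 CPM at 72 h and 22.4, 87.1 and 125 CPM at 2 weeks, where FT 2 week replicate 1 was the low one (-0.45 ± 0.46, adjusted p = 0.64).

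Division genes share short promoter elements, the E2F site of S-phase genes and the cell cycle genes homology region (CHR) of mitotic genes, which are bound by E2F factors and by the DREAM and MuvB complexes. Promoters from 250 bases before to 50 after the start were available from RefSeq (build GRCm38.p6) for 12260 of the 16810 genes, and for 332 of the 450 lower and 131 of the 190 higher genes. Letters were searched on both strands, TTCCCGC or TTGGCGC for E2F, TTTGAA for CHR and CCAAT for the CCAAT box, and none of these contains another. CHR letters were in 32 of 46 promoters of the mitotic list (69.6%), in 6 of 34 of the replication list (17.6%) and in 12.9% of all promoters of the same length. E2F letters were in 17 of 34 promoters of the replication list, in 14 of 46 of the mitotic list (30.4%), in 11 of 23 of the repair list (47.8%) and in 11.2% of all. In the repair list 2 of 23 promoters (8.70%) held CHR letters. The cyclin and kinase list, which holds *Ccnb2* and *Plk1*, had equal shares of both, 9 of 26 promoters (34.6%) with CHR and 9 of 26 with E2F letters. The CCAAT box was in 65.2% of the mitotic, 58.8% of the replication and 38.3% of all promoters. Among the 238 lower genes outside these lists, 57 (23.9%) held CHR letters and 27 (11.3%) E2F letters. Among the higher genes the shares were 9.92% for CHR and 11.5% for E2F. A match is a description of letters and not a test of binding. The promoters printed below are examples that hold the letters, and not every gene whose fall is given above had them. *Ccnb1* had E2F and CCAAT but no CHR letters, *Rrm2* had CCAAT alone, and *Birc5* and *Tk1* had none of these. The promoters below are shown for genes whose falls are given above, with CHR letters in capitals for *Ccnb2* (minus strand of chr9:70421505-70421804), *Top2a* (minus strand of chr11:99024140-99024439) and *Plk1* (plus strand of chr7:122159185-122159484), and with E2F letters in capitals for *Mcm5* (plus strand of chr8:75109259-75109558) and *Cdc6* (plus strand of chr11:98907901-98908200), 5′ to 3′ on the strand of the gene. A match on the other strand reads TTCAAA for CHR and GCGCCAA or GCGGGAA for E2F.
Ccnb2: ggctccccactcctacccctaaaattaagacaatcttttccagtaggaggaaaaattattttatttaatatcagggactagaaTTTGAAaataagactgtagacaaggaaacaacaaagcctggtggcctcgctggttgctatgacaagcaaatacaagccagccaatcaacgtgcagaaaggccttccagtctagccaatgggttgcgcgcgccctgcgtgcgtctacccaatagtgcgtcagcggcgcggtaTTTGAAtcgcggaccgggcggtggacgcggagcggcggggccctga
Top2a: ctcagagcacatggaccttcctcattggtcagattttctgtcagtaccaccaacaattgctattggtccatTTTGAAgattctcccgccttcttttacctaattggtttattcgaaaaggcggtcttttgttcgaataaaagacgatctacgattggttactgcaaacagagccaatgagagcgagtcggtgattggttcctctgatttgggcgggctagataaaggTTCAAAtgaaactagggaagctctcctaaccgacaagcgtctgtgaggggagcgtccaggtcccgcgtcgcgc
Plk1: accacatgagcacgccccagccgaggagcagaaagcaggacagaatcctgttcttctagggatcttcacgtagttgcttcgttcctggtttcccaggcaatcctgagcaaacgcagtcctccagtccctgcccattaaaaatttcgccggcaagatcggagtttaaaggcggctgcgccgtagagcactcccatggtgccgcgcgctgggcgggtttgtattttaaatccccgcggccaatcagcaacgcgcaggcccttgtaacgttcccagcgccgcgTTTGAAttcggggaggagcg
Mcm5: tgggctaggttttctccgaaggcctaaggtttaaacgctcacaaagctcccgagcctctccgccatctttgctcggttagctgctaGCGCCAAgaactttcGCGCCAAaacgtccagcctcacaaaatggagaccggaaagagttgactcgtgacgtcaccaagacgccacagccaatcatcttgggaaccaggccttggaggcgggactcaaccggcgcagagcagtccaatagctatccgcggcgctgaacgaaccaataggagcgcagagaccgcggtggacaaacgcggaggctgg
Cdc6: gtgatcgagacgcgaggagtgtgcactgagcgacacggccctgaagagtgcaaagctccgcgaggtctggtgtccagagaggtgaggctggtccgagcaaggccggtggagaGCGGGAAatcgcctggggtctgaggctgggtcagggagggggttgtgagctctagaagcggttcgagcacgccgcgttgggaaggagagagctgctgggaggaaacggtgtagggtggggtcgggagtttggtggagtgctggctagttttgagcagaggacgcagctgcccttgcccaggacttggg

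In *Ccnb2* and *Plk1* a CHR match lay just after the RefSeq start site, at base 4 and base 30, and in *Top2a* at base -23, where the first base of the RefSeq transcript counts as 0. The GENCODE start of *Ccnb2*, from the gene position given above, falls within the match at base 4. A second CHR match lay at -167 in *Ccnb2* and at -179 in *Top2a*. The E2F letters of *Mcm5* lay at -164 and -149, and those of *Cdc6* at -138.

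**Figure D2:**
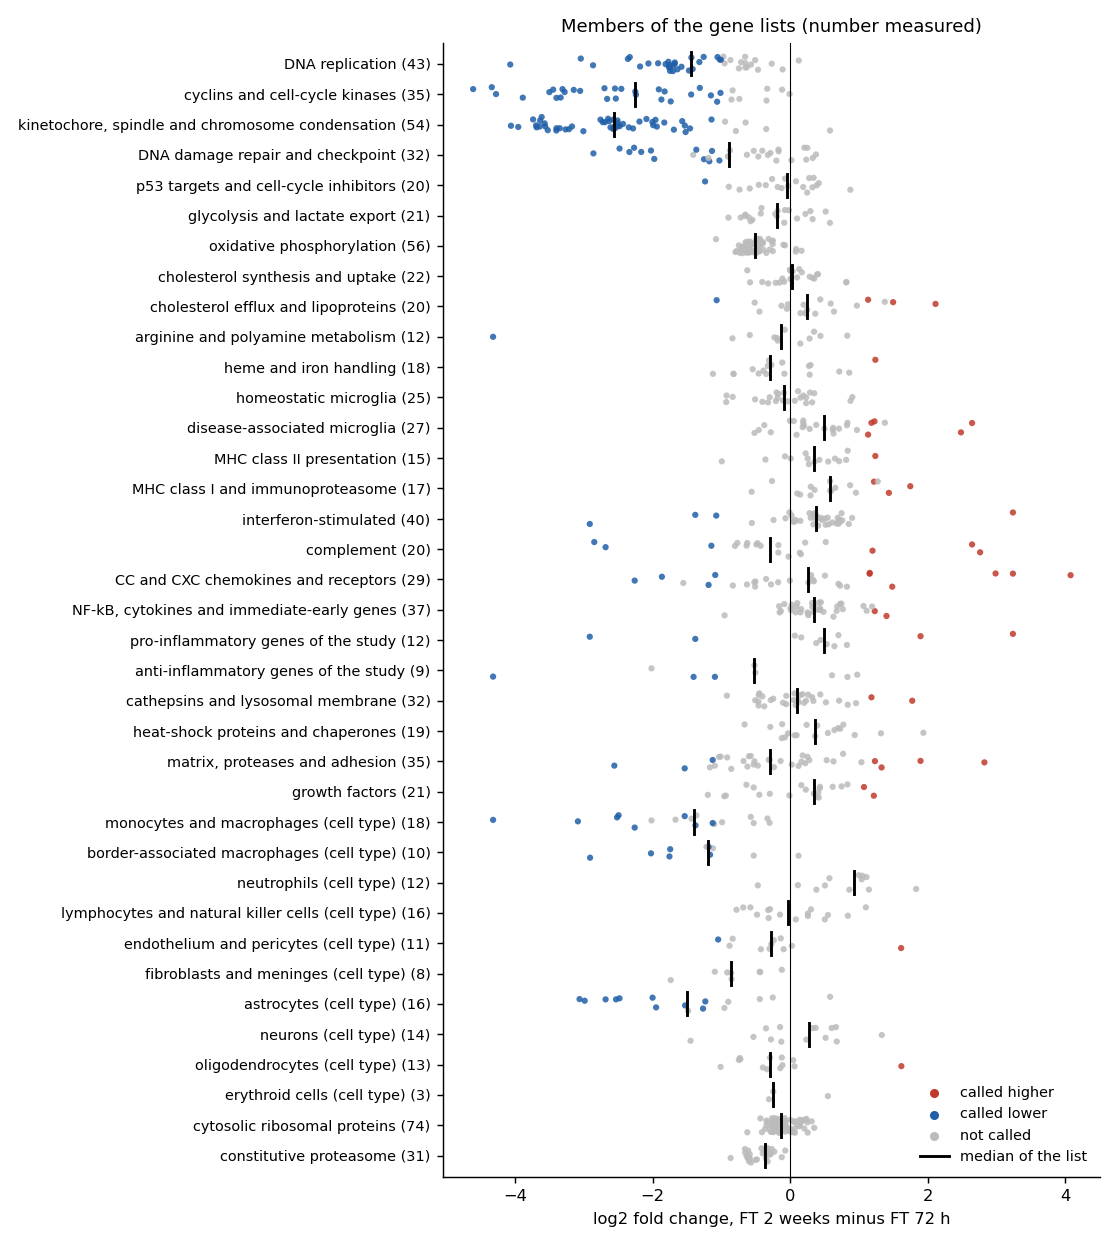
Log2 fold change, FT 2 weeks minus FT 72 h, of every measured member of 37 gene lists (x axis), with genes called higher in red, called lower in blue and not called in grey, and the median of each list as a black bar. The 3 division lists at the top lie almost wholly to the left of 0, with medians of -1.43, -2.25 and -2.56.

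The falls went beyond the lists. Of the 450 lower genes, 296 were on none of them. Those that follow were chosen after their values were seen. *Uhrf1*, which keeps DNA methylation through replication (-2.61 ± 0.24), *Asf1b*, a histone chaperone (-2.88 ± 0.31), *Ezh2*, the methyltransferase of Polycomb (-1.54 ± 0.21), and *H2afz*, a histone variant (-1.37 ± 0.24), were lower at 2 weeks. *Stmn1*, stathmin, which destabilizes microtubules, was at 525, 657 and 479 CPM at 72 h and 53.5, 125 and 86.0 CPM at 2 weeks (-2.71 ± 0.30, adjusted p = 1.99e-06). Its late samples were close to those of NI or lower (126, 93.3 and 109 CPM). *S100a10*, of the S100 family (-1.96 ± 0.35), *Anxa2*, annexin A2 (-1.02 ± 0.21), *Lgals1*, galectin 1 (-2.13 ± 0.26), and *Cfl1*, cofilin (-1.05 ± 0.19), were lower too. *Lgals1* was at 248, 313 and 174 CPM at 72 h and 55.7, 55.3 and 51.1 CPM at 2 weeks, above the NI samples at both times (17.2, 12.6 and 17.4 CPM). Also picked out by their values were 3 genes of leukotriene synthesis. *Alox5*, 5-lipoxygenase, went from 127, 86.2 and 105 CPM to 64.1, 44.8 and 43.1 CPM (-1.06 ± 0.28, adjusted p = 0.028), *Alox5ap*, its activating protein, from 764, 1207 and 692 CPM to 374, 377 and 426 CPM (-1.13 ± 0.23), and *Ltc4s*, leukotriene C4 synthase, from 283, 471 and 338 CPM to 177, 172 and 174 CPM (-1.03 ± 0.20). Late samples of all 3 genes were under those of NI, which had 92.4, 71.8 and 62.3 CPM of *Alox5*, 624, 489 and 628 CPM of *Alox5ap* and 307, 251 and 301 CPM of *Ltc4s*, except FT 2 week replicate 1 for *Alox5*, which lay within the NI range. These changes were near the 2-fold limit, and the calls of *Alox5*, *Alox5ap*, *Ltc4s*, *Anxa2* and *Cfl1* were lost with quantile-scaled columns, and all of them but *Alox5ap* also with columns scaled to 1 total. The call of *Alox5* was also lost without FT 72 h replicate 1 or 3 or FT 2 week replicate 2 or 3, those of *Alox5ap* and *Ltc4s* without FT 72 h replicate 2, and those of *Anxa2* and *Cfl1* without FT 72 h replicate 1 (*Anxa2* also without FT 2 week replicate 3). With reads thinned to the smallest library the call of *Ltc4s* was lost too.

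Markers of monocytes and macrophages were lower at 2 weeks in part. Of 18 monocyte and macrophage markers 8 fell and none rose (median -1.40), and their sum went from 1947, 720.0 and 770.1 CPM to 512, 364 and 346 CPM, against 146, 134 and 133 CPM in NI. In bulk samples fewer cells of a type and less RNA per cell cannot be told apart. *Ccr2*, the receptor that draws monocytes out of the blood (GRCm38 chromosome 9, 124101950 to 124113557, plus strand), was at 166, 68.1 and 57.0 CPM at 72 h and 20.03, 14.5 and 18.9 CPM at 2 weeks. FT 72 h replicate 1 was far above the others of its group, and the late samples lay close to NI (14.6, 20.1 and 19.3 CPM). The log2 fold change was -2.26 ± 0.45 (adjusted p = 0.0027). *F13a1*, a factor XIII subunit of monocytes, was at 176, 36.2 and 38.6 CPM at 72 h and 4.49, 9.23 and 8.02 CPM at 2 weeks, below NI (45.6, 33.7 and 29.4 CPM), with a change of -3.09 ± 0.41. *S100a4* and *S100a6*, calcium-binding proteins of motile cells, changed by -2.49 ± 0.40 and -2.52 ± 0.36. Of the defining markers *Ly6c2* was low throughout (3.87, 6.13 and 3.92 CPM at 72 h, 0.0936, 2.96 and 2.67 CPM at 2 weeks, -1.43 ± 0.49, adjusted p = 0.092), and *Plac8* was not DE (-0.99 ± 0.50, adjusted p = 0.28). With FT 72 h replicate 1 left out, 6 of the 18 fell.

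*Arg1*, arginase 1, the enzyme that turns arginine into ornithine and a marker of alternatively activated macrophages (GRCm38 chromosome 10, 24915221 to 24927484, minus strand), is also on the monocyte list. It was at 87.1, 24.2 and 17.0 CPM at 72 h and 1.22, 1.04 and 1.30 CPM at 2 weeks, with 5.78, 2.48 and 2.29 CPM at 1 week and 1.37, 1.29 and 1.63 CPM in NI. FT 72 h replicate 1 was far above the others of its group, which were still above every late sample. The log2 fold change was -4.32 ± 0.61 (adjusted p = 5.62e-05). The other genes of arginine and polyamine metabolism did not pass the test, with *Odc1*, ornithine decarboxylase, at 32.4, 34.8 and 30.2 CPM at 72 h and 15.1, 124 and 104 CPM at 2 weeks. Of the 9 genes that the study called anti-inflammatory on these samples 3 fell (*Arg1*, *Alox15* at -1.40 ± 0.35, and *Msr1*, a scavenger receptor, at -1.09 ± 0.31) and none rose. That list was chosen by the study on these samples and is not independent evidence of a direction. The calls of *Alox15* and *Msr1* were lost with quantile-scaled columns and without FT 72 h replicate 1 or FT 2 week replicate 3. That of *Msr1* was also lost without the replicates numbered 2 of either group. Without FT 72 h replicate 1 the count was 1 higher and 1 lower, and without FT 72 h replicate 2 it was 1 higher and 2 lower. Of 12 genes that the study called pro-inflammatory, likewise on these samples, 2 rose (*Cxcl9* and *Mmp12*, below) and 2 fell (*Ifitm1* and *Ifitm2*). Changes were above 0 for 10 of the 12 and below for 2 (median 0.49). The summed level of the 12 was 5129, 4741 and 3791 CPM at 72 h and 6148, 6380 and 6864 CPM at 2 weeks. This list, too, is not independent evidence of a direction.

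Border-associated macrophages, the macrophages of meninges and vessels, had 6 of 10 markers lower and none higher (median -1.200). Their sum was 1319, 1039.5 and 1343 CPM at 72 h, 1164, 1212 and 1199 CPM at 1 week and 697, 645 and 631 CPM at 2 weeks, below NI (1011, 983 and 1005 CPM). *Cbr2*, a carbonyl reductase, was at 35.4, 43.5 and 40.3 CPM at 72 h and 3.18, 5.92 and 5.96 CPM at 2 weeks (-2.91 ± 0.28, adjusted p = 2.44e-07). *Lyve1*, a hyaluronan receptor, went from 7.61, 5.55 and 3.21 CPM to 0.936, 0.871 and 1.91 CPM (-1.75 ± 0.32), and *Cd5l*, an apoptosis inhibitor of macrophages, changed by -2.02 ± 0.34. *Pf4*, platelet factor 4 (-1.18 ± 0.24), kept its direction but came under 2-fold without FT 72 h replicate 1 or FT 2 week replicate 1. *Mrc1*, the mannose receptor, was not DE (-0.53 ± 0.20, adjusted p = 0.13).

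Astrocyte transcripts, which the study followed in these cells, were lower at 2 weeks. Of 16 astrocyte markers 10 fell (median -1.504), and the sum went from 942, 982 and 934 CPM to 272, 479 and 349 CPM, with 951, 708 and 526 CPM in NI. *Gfap*, the intermediate filament of reactive astrocytes (GRCm38 chromosome 11, 102887336 to 102900912, minus strand), was at 254, 354 and 356 CPM at 72 h, 71.4, 119 and 140.2 CPM at 1 week and 33.0, 58.7 and 27.3 CPM at 2 weeks. The late samples overlapped the NI samples (52.6, 54.6 and 28.3 CPM), and the log2 fold change was -3.06 ± 0.33 (adjusted p = 1.44e-06). *Serpina3n*, a serine protease inhibitor, was at 56.0, 45.9 and 37.9 CPM and 4.31, 12.02 and 8.17 CPM (-2.53 ± 0.69, adjusted p = 0.03). *Slc1a2*, a glutamate transporter (29.2, 59.6 and 39.7 CPM at 72 h, 4.49, 16.3 and 12.9 CPM at 2 weeks, 152, 99.9 and 87.4 CPM in NI), and *Atp1b2*, a sodium pump subunit (25.8, 28.6 and 27.8 CPM, 1.03, 6.10 and 3.82 CPM and 90.5, 55.1 and 28.6 CPM), had another course, since their 72 h samples were already under most of the NI samples. Their changes were -1.999 ± 0.47 and -2.99 ± 0.57. *Vim*, vimentin, which macrophages also express, was not DE (-0.90 ± 0.28, adjusted p = 0.063). FT 2 week replicate 1 was the lowest sample of its group in *Slc1a2*, *Atp1b2* and *Serpina3n*. Without it, or without FT 2 week replicate 3, 6 of the 16 fell. Without replicate 1 the calls of *Slc1a2* and *Serpina3n* were lost (adjusted p = 0.075 and 0.12). That of *Slc1a2* was also lost without FT 72 h replicate 2. That of *Serpina3n* was lost without any single FT 72 h sample, without FT 2 week replicate 3, and with 0.1 CPM added. Of other cell types, none of 12 neutrophil, 16 lymphocyte, 8 fibroblast and 14 neuron genes was DE, while 1 of 13 oligodendrocyte-lineage genes rose. This was *Cspg4*, the proteoglycan NG2, at 20.7, 11.7 and 14.2 CPM at 72 h and 81.2, 30.7 and 42.8 CPM at 2 weeks (1.62 ± 0.37, adjusted p = 0.0085, and 0.063 without FT 2 week replicate 1), and its call was also lost without FT 72 h replicate 2. Of 11 genes of endothelium and pericytes *Flt1* rose (1.62 ± 0.26) and *Pecam1* fell (-1.05 ± 0.27), and none of 3 erythroid genes was DE. The part of these cells in the results was not tested.

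**Figure D3:**
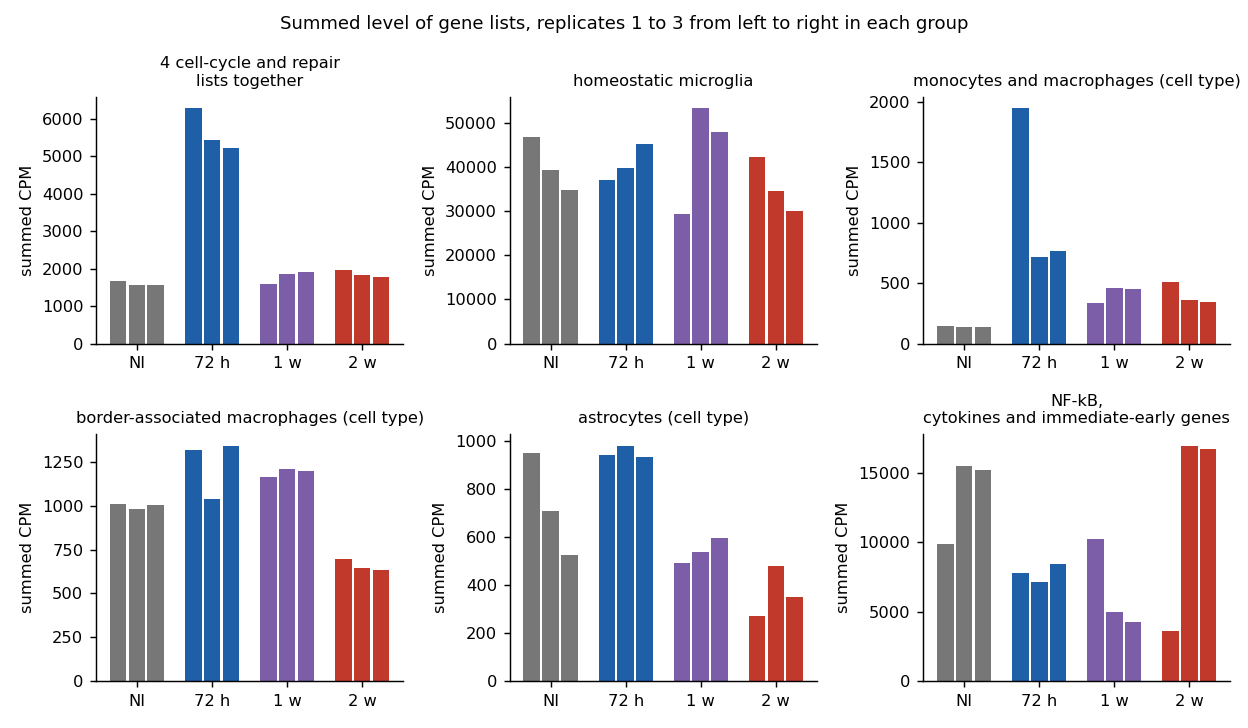
Summed CPM of the members of 6 gene lists (y axis, from 0) in each NI and FT sample, with replicates 1 to 3 from left to right as bars within each group. The cell-cycle and repair lists are high at 72 h alone, monocyte markers are highest in FT 72 h replicate 1 (1947 CPM), border-associated macrophage and astrocyte markers are lowest at 2 weeks, and the immediate-early list is low in FT 2 week replicate 1 (3585 CPM).

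Of 29 chemokine and receptor genes 6 rose and 4 fell. *Cxcl13*, the ligand that draws B cells (GRCm38 chromosome 5, 95956951 to 95961068, plus strand), was at 2.62, 2.34 and 0.890 CPM at 72 h, from 21, 8 and 10 reads, and 39.0, 38.7 and 38.03 CPM at 2 weeks, from 417, 444 and 498 reads. The late samples were nearly equal, those at 1 week lay in between (18.3, 16.6 and 30.0 CPM), and NI was near 0 (0.238, 0.386 and 0.288 CPM). The log2 fold change was 4.08 ± 0.32 (adjusted p = 1.44e-08). *Cxcl9*, a ligand induced by interferon gamma (GRCm38 chromosome 5, 92321347 to 92328079, minus strand), was at 1.37, 1.46 and 1.34 CPM at 72 h and 19.7, 15.0 and 17.7 CPM at 2 weeks. At 72 h it lay within the NI range (0.953, 2.32 and 1.15 CPM), and it changed by 3.24 ± 0.27 (adjusted p = 4.18e-08). *Ccl5*, which attracts T cells and monocytes (GRCm38 chromosome 11, 83525778 to 83530518, minus strand), was at 24.0, 34.8 and 11.5 CPM at 72 h, 71.4, 76.1 and 106 CPM at 1 week and 171, 169 and 178 CPM at 2 weeks, so that the 3 times after FT did not overlap (2.99 ± 0.26, adjusted p = 7.19e-08). The other rises, named after their values were seen, were *Ccl22* (1.49 ± 0.31, with 2.81 ± 0.897 CPM at 2 weeks, SD, n = 3), *Cxcl14* (1.16 ± 0.29) and *Cxcl16* (1.16 ± 0.23), and the falls *Ccr2*, *Ccr1* (-1.86 ± 0.30), *Pf4* and *Ppbp* (-1.09 ± 0.32, adjusted p = 0.049). Leaving out 1 library ended the calls of *Ppbp* (any of the 6), *Cxcl14* (FT 72 h replicate 1 or 3 or FT 2 week replicate 1 or 2) and *Cxcl16* (FT 72 h replicate 2). *Ppbp* lost its call in 13 of 17 alternatives. *Ccl2*, the main monocyte chemokine, was not DE (333, 423 and 355 CPM at 72 h, 93.8, 296 and 318 CPM at 2 weeks), and FT 2 week replicate 1 was the low one. *Cxcr4* (0.73 ± 0.47) and *Ccl8* (0.83 ± 0.32) were not DE either.

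Complement genes moved in both directions, 3 of 20 up and 3 down. *C3*, on which the complement pathways meet (GRCm38 chromosome 17, 57203970 to 57228136, minus strand), was at 26.7, 11.98 and 16.8 CPM at 72 h, 88.8, 113 and 107 CPM at 1 week and 119.9, 124 and 122 CPM at 2 weeks, with 6.197, 7.46 and 6.91 CPM in NI (2.76 ± 0.21, adjusted p = 1.25e-08). *Itgax*, which encodes CD11c, the alpha chain of a complement receptor, was at 35.3, 21.9 and 17.99 CPM at 72 h, 47.3, 52.1 and 52.9 CPM at 1 week and 151, 159 and 151 CPM at 2 weeks (GRCm38 chromosome 7, 128129547 to 128150657, plus strand). Its late samples were far above those at 1 week, and the log2 fold change was 2.65 ± 0.28 (adjusted p = 1.02e-06). *Cfp*, properdin, which stabilizes the alternative convertase, went the other way, from 90.2, 21.0 and 28.8 CPM to 3.93, 5.66 and 5.12 CPM (-2.85 ± 0.40). Its late samples were under NI (9.65, 9.39 and 8.06 CPM). *C2* rose (1.2 ± 0.30), and *Clu* (-2.68 ± 0.49) and *C1ra* (-1.14 ± 0.27) fell, with *Clu* also on the astrocyte list. The call of *C2* was lost without FT 72 h replicate 2 or 3 or FT 2 week replicate 1 or 3. The first component *C1qa*, at 1434, 1696 and 1417 CPM and 1529.8, 1999 and 1779 CPM, the receptor *C3ar1* (-0.17 ± 0.21), *C4b* (0.52 ± 0.31) and *Cfb* (0.14 ± 0.41) were not DE.

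Of 27 genes of disease-associated microglia, the phagocytic state described in neurodegeneration, 5 rose and none fell (median 0.50), with 4 to 6 rises when 1 library was left out. These were *Itgax*, *Dkk2* (2.49 ± 0.32), *Axl*, *Cst7* and *Lpl*. *Axl*, a receptor for apoptotic cells, was at 238, 206 and 227 CPM at 72 h and 632, 480.0 and 473 CPM at 2 weeks (1.23 ± 0.22, adjusted p = 0.0012). *Cst7*, cystatin F, was at 269.6, 407 and 276 CPM and 683, 686 and 761 CPM (1.18 ± 0.27), far above NI at both times (20.3, 24.8 and 34.0 CPM). *Lpl*, lipoprotein lipase, was at 531, 556 and 524 CPM and 1536, 1032 and 1038 CPM (1.14 ± 0.23, under 2-fold without FT 2 week replicate 1). *Spp1*, osteopontin, was the main exception, at 5188, 4714 and 3854 CPM at 72 h, 1459, 2036 and 2894 CPM at 1 week and 3748, 2961 and 2894 CPM at 2 weeks. It was below its 72 h level in all late samples, yet did not pass the test (-0.52 ± 0.25, adjusted p = 0.26), and was far lower in NI (79.4, 94.8 and 108 CPM). *Clec7a*, dectin-1, passed at p but not at 2-fold (0.83 ± 0.23, adjusted p = 0.031). *Gpnmb* (0.71 ± 0.29), *Lgals3* (0.38 ± 0.32) and *Igf1* (0.84 ± 0.26) were not DE.

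Lipid carriers diverged. *Apoc4* was at 5.62, 8.76 and 8.73 CPM at 72 h, 26.2, 16.6 and 24.1 CPM at 1 week and 38.6, 35.3 and 30.0 CPM at 2 weeks, with 0.238, 0.257 and 0.576 CPM in NI (2.12 ± 0.29, adjusted p = 3.89e-05). *Apoc1* went from 38.3, 60.2 and 47.1 CPM to 136, 153 and 120.4 CPM (1.499 ± 0.21), whereas *Apoc2*, the cofactor of lipoprotein lipase, which lies beside *Apoc4* on chromosome 7, fell from 192, 136 and 115 CPM to 74.0, 71.5 and 60.6 CPM (-1.07 ± 0.26, adjusted p = 0.017). The call of *Apoc2* was lost without FT 72 h replicate 1 or FT 2 week replicate 3, and with quantile-scaled columns or columns scaled to 1 total. *Apoe*, the main lipoprotein of glia, spread too widely to call, with 7974, 1689 and 6338 CPM at 72 h and 25539, 10889 and 5402 CPM at 2 weeks (1.38 ± 0.78, interval -0.24 to 3.00). The libraries do not mark strand, so that overlapping transcripts cannot be separated. None of 22 genes of cholesterol synthesis and uptake, 21 of glycolysis and 56 of oxidative phosphorylation was DE. The oxidative phosphorylation genes nevertheless had 53 of 56 changes below 0 (median -0.51), and so did the 31 proteasome subunits, 31 of 31 (median -0.36), against a median of 0.045 for all genes. Of 32 cathepsin and lysosomal membrane genes *Cst7* and *Atp6v0d2*, a proton pump subunit (1.78 ± 0.30), rose, and of 18 genes of heme and iron handling *Tfrc*, the transferrin receptor (11.6, 11.4 and 12.3 CPM at 72 h, 22.9, 31.0 and 32.5 CPM at 2 weeks, 1.24 ± 0.23). None of 74 ribosomal protein genes was DE.

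Few genes of antigen presentation were DE, though most of their changes were above 0. In the class I list 3 of 17 genes rose (17.6%, against 1.13% of all genes) and none fell. Changes were above 0 for 15 of the 17 and below for 2 (median 0.58, against 0.045 over all genes). Without the fold limit 7 of the 17 passed the p threshold, against 971 of all 16810 genes. *H2-K1*, a class I heavy chain, was at 488, 456 and 658 CPM at 72 h and 1058, 1488 and 1179.7 CPM at 2 weeks (1.22 ± 0.22, adjusted p = 9.98e-04). *Nlrc5*, the transactivator of class I genes, went from 17.8, 14.9 and 20.3 CPM to 46.4, 53.9 and 45.3 CPM (1.44 ± 0.20), and *H2-Q4* changed by 1.75 ± 0.32. Class I genes have near-identical copies among which reads may be split. *B2m*, their light chain, was not DE (0.60 ± 0.33, interval -0.081 to 1.27). In the class II list *H2-Oa* alone was DE (1.24 ± 0.24), 1 of 15 genes (6.67%, against 3.81% DE over all genes). Changes of class II genes were above 0 for 12 of the 15 and below for 3 (median 0.35). Their summed level went from 13805, 15668 and 13045 CPM at 72 h to 20846, 21338 and 22818 CPM at 2 weeks, with no overlap. Without FT 72 h replicate 1, 2 class II genes were higher and 1 lower. *Cd74*, the invariant chain, was at 1959, 619.8 and 674 CPM and 1106, 2132 and 1988 CPM, with FT 72 h replicate 1 high (0.84 ± 0.39, adjusted p = 0.24). Of 40 interferon-stimulated genes 1 rose (*Cxcl9*) and 3 fell (*Ifitm1* at -2.91 ± 0.55, *Ifitm2* at -1.38 ± 0.21 and *Ifi27l2a* at -1.07 ± 0.25). Most of the list moved up by less, with 33 of the 40 changes above 0 and 7 below. The median was 0.38, against 0.045 over all genes. The call of *Ifi27l2a* was lost without FT 72 h replicate 2 or 3 or FT 2 week replicate 3, and with quantile-scaled columns. *Isg15* (0.38 ± 0.20) and *Cxcl10* (0.70 ± 0.34) were not DE.

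NF-kB, cytokine and immediate-early genes were split by FT 2 week replicate 1. *Tnf* was at 132, 77.7 and 84.6 CPM at 72 h and 21.7, 253 and 265 CPM at 2 weeks, and *Il1b* at 242, 171 and 154 CPM and 38.4, 459.6 and 501 CPM. In both genes 2 late samples were above and 1 below all those at 72 h. *Relb*, a subunit of the non-canonical NF-kB pathway, was free of that split, at 9.49, 11.4 and 10.6 CPM and 23.6, 35.1 and 27.9 CPM (1.40 ± 0.25, adjusted p = 0.0012). *Il12b*, a subunit of interleukins that act on T cells, was low (2.90, 4.01 and 5.50 CPM at 2 weeks, 1.23 ± 0.35, adjusted p = 0.038) and lost its call without any replicate numbered 2 or 3 of either group. The call of *Il12b* was also lost with only the groups compared in the fit, with the replicate block and by edgeR quasi-likelihood. With FT 2 week replicate 1 left out, 5 of 37 genes rose in place of 2, together with 3 of 19 heat-shock, 4 of 12 neutrophil, 1 of 16 lymphocyte and 1 of 14 neuron genes in place of none. None of these lists had a member that fell in either case.

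Matrix and protease genes moved in both directions, 4 of 35 up and 3 down. *Postn*, periostin, a matrix protein of healing tissue (GRCm38 chromosome 3, 54361109 to 54391037, plus strand), was at 6.86, 5.55 and 7.57 CPM at 72 h, 8.82, 12.4 and 12.6 CPM at 1 week and 72.5, 40.9 and 42.0 CPM at 2 weeks. At 72 h it was close to the NI level (6.97, 6.18 and 6.91 CPM), and it changed by 2.83 ± 0.24 (adjusted p = 3.91e-08). *Mmp12*, macrophage elastase, was at 17.1, 15.2 and 15.9 CPM at 72 h, 11.6, 14.6 and 17.7 CPM at 1 week and 63.1, 59.3 and 61.3 CPM at 2 weeks (1.90 ± 0.32). The 1 week samples of *Mmp12* overlapped those at 72 h, and those of *Postn* lay above them and far below those at 2 weeks. *Plau*, urokinase (1.33 ± 0.24), and its receptor *Plaur* (1.24 ± 0.26) rose as well. *Timp1*, an inhibitor of metalloproteinases, went from 11.2, 9.93 and 3.83 CPM to 0.842, 0.871 and 0.916 CPM (-2.56 ± 0.44), near NI (0.655, 0.643 and 0.576 CPM). *Fn1*, fibronectin, went from 914, 407 and 469.9 CPM to 416, 203 and 199 CPM (-1.12 ± 0.30, adjusted p = 0.025), and *Thbs1*, thrombospondin 1, from 272, 62.5 and 74.3 CPM to 31.6, 41.7 and 38.6 CPM (-1.53 ± 0.36). In both FT 72 h replicate 1 was the highest sample, and both calls were lost without it (*Fn1* adjusted p = 0.16). The call of *Fn1* was also lost without FT 2 week replicate 2 or 3 and with quantile-scaled columns. With only the groups compared in the fit, the calls of both *Fn1* and *Thbs1* were lost. Of 21 growth factors 2 were DE (9.52%). *Pdgfb* (59.7, 57.5 and 62.5 CPM and 115, 159.8 and 149 CPM, 1.22 ± 0.22) and *Pdgfa* (1.08 ± 0.27) rose, the latter not without any replicate numbered 2 or 3 of either group. *Pdgfb* was under its NI level at 72 h (117, 137 and 138 CPM).

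Of the 190 higher genes 159 were on no list. By size the largest were *Slc45a3*, a transporter (0.250, 0.292 and 1.42 CPM at 72 h, 9.83, 6.27 and 8.25 CPM at 2 weeks, 3.02 ± 0.41), *Slamf8*, a receptor of the SLAM family (17.0, 17.2 and 18.4 CPM and 97.8, 109 and 99.4 CPM, 2.51 ± 0.21), and *Madcam1*, an adhesion molecule (0.624, 1.17 and 0.445 CPM and 6.55, 5.83 and 6.72 CPM, 2.50 ± 0.30). *Slc45a3* and *Madcam1* rested on few reads at 72 h, 2, 1 and 16 reads of the former and 5, 4 and 5 of the latter. Chosen after their values were seen, *Vcam1*, which holds leukocytes to vessels, rose from 17.7, 12.3 and 13.4 CPM to 32.9, 57.7 and 64.8 CPM (1.76 ± 0.34, adjusted p = 0.0023), *Slc39a4*, a zinc importer, from 10.6, 4.97 and 8.01 CPM to 35.9, 31.7 and 30.0 CPM (2.04 ± 0.24), and *Cd22*, an inhibitory sialic acid receptor, from 37.3, 40.9 and 39.1 CPM to 126, 81.2 and 92.7 CPM (1.32 ± 0.27). *Cd274*, the checkpoint ligand PD-L1, rose by 1.07 ± 0.25 (adjusted p = 0.011). *Tlr12*, a receptor for parasite profilin, was at 4.74, 9.93 and 8.55 CPM at 72 h, 39.2, 24.4 and 24.3 CPM at 2 weeks and 22.7, 21.6 and 21.8 CPM in NI, so that the 72 h samples were the low ones (1.88 ± 0.27).

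**Figure D4:**
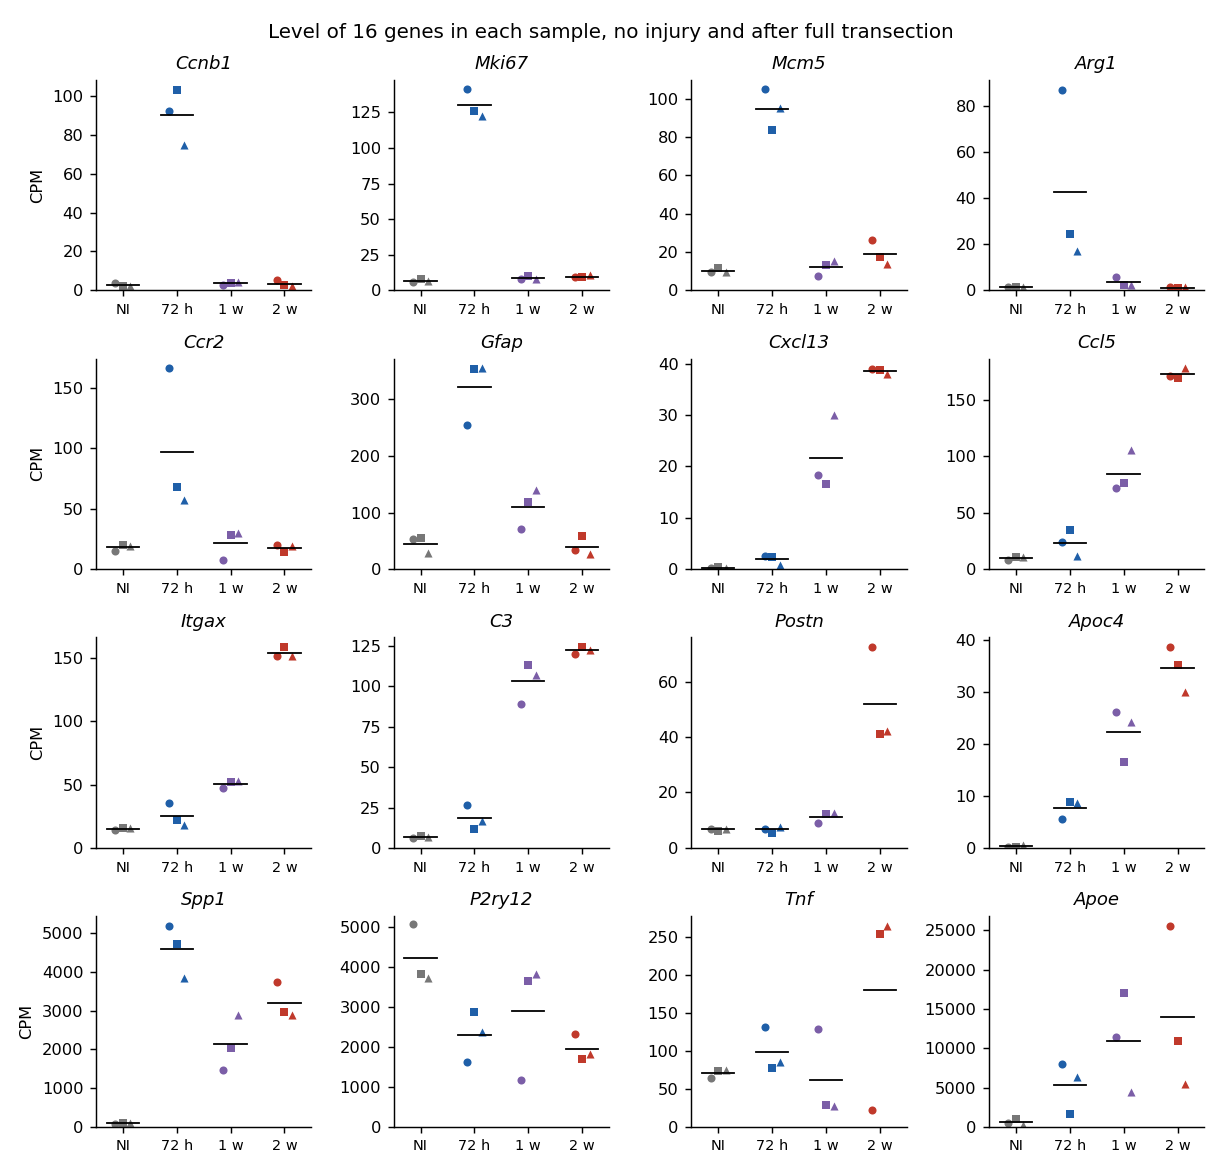
Level in CPM (linear y axis from 0, its own scale in each panel) of 16 genes in NI samples (grey) and at 72 h (blue), 1 week (purple) and 2 weeks (red) after FT, with circles, squares and triangles for replicates 1, 2 and 3 and a bar at the group mean. Division genes are high at 72 h alone, *Ccl5*, *Itgax* and *Postn* are highest at 2 weeks, and *Tnf* in FT 2 week replicate 1 lies below its group.

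After HS the same interval gave 797 DE genes (4.74%), 230 higher and 567 lower at 2 weeks. With columns scaled to 1 total 409 genes were higher, or 51.1% of the calls in place of 28.9%, and that scaling moved the median change of all genes after HS from 0.051 to 0.20. The HS samples are other samples than those of FT. Of the 640 genes DE after FT, 439 were DE in the same direction after HS (68.6% of the FT and 55.1% of the HS genes), 98 higher and 341 lower, and none was DE in opposite directions. The sign of the change was the same after both lesions for 629 of the 640. Over all 16810 genes the changes after FT and HS had a correlation of 0.77 (Pearson, across genes, which are not independent and share a library depth within each sample). *Ccnb1* changed by -4.61 after FT and -4.07 after HS, *Cxcl13* by 4.08 and 3.31, *Itgax* by 2.65 and 3.00, and *Postn* by 2.83 and 2.72. The 164 genes of the replication, cyclin, mitotic and repair lists had a pooled median of -1.77 after FT and -1.89 after HS.

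No gene had a change over time that differed between FT and HS at an adjusted p under 0.05 (0 of 16810, 0%, limma interaction). At an unadjusted p under 0.05 there were 435 of 16810, a smaller share than the 0.05 that this threshold would pass if no gene differed. That share does not show that the 2 lesions had the same course, since genes are not independent and the groups were small. On the recovered reads edgeR called 0 by quasi-likelihood (395 unadjusted) and 0 by likelihood ratio (416 unadjusted), and DESeq2 called 0 (317 unadjusted). The intervals of single genes were wide. The difference for *Arg1* was -1.47 (95% interval -3.25 to 0.32), from -4.32 after FT and -2.85 after HS, and for *Gfap* -0.89 (-1.86 to 0.08). *Slc1a2* was lower after FT (-1.999) and at 0.16 after HS, where it was at 29.2, 23.2 and 17.8 CPM at 72 h and 8.73, 46.0 and 41.5 CPM at 2 weeks. Its difference of -2.16 (-3.53 to -0.79) had an unadjusted p of 0.0036. *Atp1b2* was at -2.99 and -0.99 (difference -3.67 to -0.32). *H2-Aa*, a class II chain, changed by 0.01 after FT and 1.53 after HS (difference -2.73 to -0.32, unadjusted p = 0.016), and *Gpnmb* by 0.71 and 1.71 (difference -1.86 to -0.13). None of these differences passed adjustment over all genes.

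**Figure D5:**
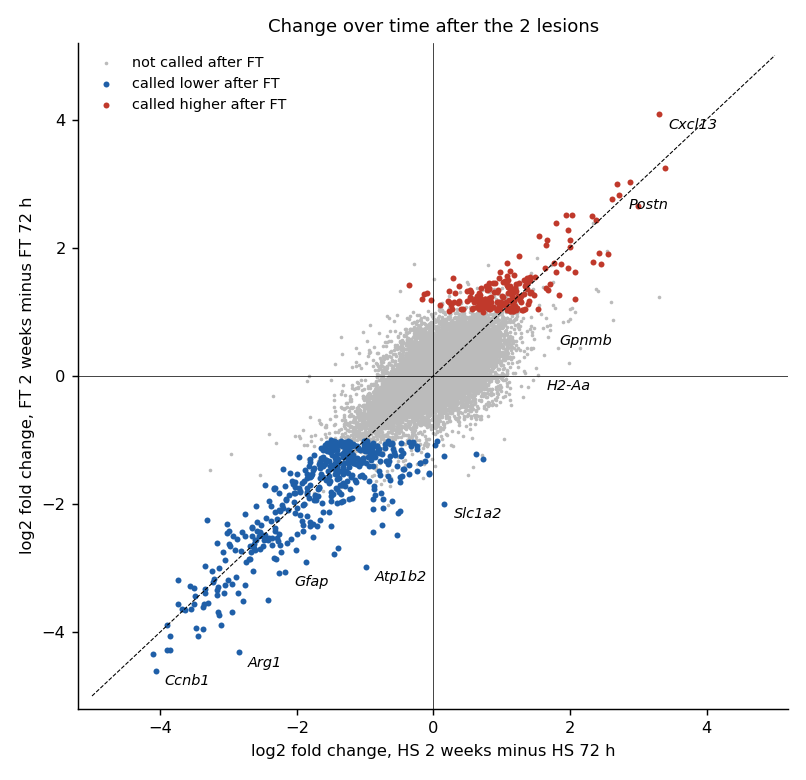
Each point is a gene, with its log2 fold change from 72 h to 2 weeks after HS on the x axis and after FT on the y axis, the dashed line marking equal change. Genes called higher (red) or lower (blue) after FT lie along the line, and 629 of the 640 have the same sign after both lesions.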

How the data were processed

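RNA of eGFP-high cells sorted from the lesion segment was amplified from poly(A) tails and sequenced without strand marking. According to the labels and methods, the authors trimmed reads with FASTX-Toolkit, aligned them to mm10 with TopHat2 2.0.9, counted genes with HTSeq 0.5.4p3, removed genes that did not reach 10 counts in 2 replicates, and scaled the libraries in edgeR 3.3.6. The deposited signal is reads divided by the library size and an edgeR factor, in CPM, and 336200 of 336200 values were whole reads (100%, within 0.001 of 1 read). Groups came from the sample labels, and all 20 columns were used.

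Changes were tested with limma 3.58.1 (R 4.3.3, trend) on log2(CPM + 0.5) over all 20 samples, with 1 mean per group and Benjamini-Hochberg adjustment over 16810 genes. This replaced the authors' count test because the values are normalized. The whole reads were tested with edgeR 4.0.16 and DESeq2 1.42.0. At 3872918 to 12924021 reads per sample counting error was small for genes with many reads, where the spread between samples set the precision. It was not small for genes with few reads. With reads thinned to the smallest library 567 genes were DE after FT, 152 higher and 415 lower. Gene positions were from GENCODE vM21, for 15703 symbols with a single position.

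The 37 gene lists and the genes and tests were chosen with earlier results of these data known. Named genes were the anchor genes of each list, its 2 largest DE members, and the 10 largest rises and falls with at least 5 CPM and separated groups. Other named genes are said to be chosen after their values were seen, or are list members given to account for a count. Alternatives were other pseudocounts, filters, scalings, tests, depth, the replicate block and leaving out each sample. Some genes are not reported here.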

Additional observations from a re-analysis of the deposited data

How the results depend on the processing

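After FT the 640 calls ranged from 519 (only the groups compared in the fit) to 744 (edgeR likelihood ratio) over the alternatives that kept the 2-fold limit and all samples, with 129 to 217 higher and 390 to 527 lower. Without the fold limit 971 genes passed, 338 higher and 633 lower. Leaving out 1 sample at a time gave 495 to 645 calls, 114 to 207 higher and 367 to 445 lower. The count of higher genes fell to 114 without FT 72 h replicate 2, to 124 without FT 2 week replicate 2 and was 128 without FT 2 week replicate 3. After HS the counts without the fold limit were 1718, 570 higher and 1148 lower. The higher genes after HS were 148 with 1 CPM added, 409 with columns scaled to 1 total and 436 by the edgeR likelihood ratio test. Leaving out HS samples gave 517 to 1074 calls, 127 to 334 higher and 390 to 740 lower, with 517 without HS 72 h replicate 1. Of the gene lists, the falls of the anti-inflammatory genes of the study ranged from 1 to 3, those of the matrix list from 1 to 5, and the rises of the class I list from 3 to 5. The difference between FT and HS stayed at 0 calls in every alternative run. No direction of a named DE gene turned in the 19 alternatives of the FT comparison. Of 114 named DE genes 87 kept their call in all 19 and 27 lost it in at least 1, and the cause was not tested. *Timp1* and *Aldh1l1* lost their calls with reads thinned to the smallest library, and *Aldh1l1* also without FT 72 h replicate 1 or 3 or FT 2 week replicate 1 or 3. *Pecam1* lost its call without FT 72 h replicate 1 or FT 2 week replicate 1 or 2, with 1 CPM added, and with quantile-scaled columns or columns scaled to 1 total.

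With the replicate number as a replicate block, 627 genes were DE after FT, 186 higher and 441 lower. Deviations of samples with the same number had correlations of 0.11, -0.14 and -0.31, and FT 72 h replicate 2 correlated best with FT 2 week replicate 3 (0.43), so that the numbers were not taken as pairs.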

Other observations

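Among genes on no list, a few others of the largest rises at 2 weeks are given here, chosen after their values were seen. *Ly6i*, of the Ly6 family of surface proteins, was at 1.997, 1.46 and 0.534 CPM at 72 h, 2.59, 4.10 and 9.62 CPM at 1 week and 7.21, 10.4 and 9.09 CPM at 2 weeks (2.44 ± 0.38, and 2.38 after HS). *Rxrg*, a retinoid X receptor, was at 4.12, 2.63 and 3.38 CPM, 8.37, 13.8 and 13.6 CPM and 15.7, 17.2 and 12.1 CPM (2.01 ± 0.25, and 2.01 after HS), against 2.03, 1.29 and 2.59 CPM in NI. *Pianp*, a membrane protein (2.27 ± 0.34), and *Olr1*, the receptor of oxidized low-density lipoprotein (11.4, 7.30 and 7.12 CPM at 72 h, 22.6, 26.2 and 29.9 CPM at 2 weeks, 1.58 ± 0.24), rose likewise. Another course was seen in *Kcnj9*, a potassium channel, and *Tnni3*, cardiac troponin I. They were low at 72 h (0.374, 1.17 and 0.712 CPM and 1.75, 0.876 and 2.14 CPM) relative to NI (3.04, 3.99 and 4.03 CPM and 4.77, 5.02 and 5.28 CPM) as well as to 2 weeks (5.52, 5.75 and 6.19 CPM and 8.52, 11.8 and 5.57 CPM). *Cyp27a1*, the sterol 27-hydroxylase, had that course too, with 62.4, 67.6 and 57.2 CPM in NI, 31.6, 14.6 and 28.0 CPM at 72 h, 52.5, 60.5 and 56.5 CPM at 1 week and 50.9, 63.1 and 47.5 CPM at 2 weeks (1.17 ± 0.23), and its call was lost without FT 72 h replicate 2.

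Of genes outside the astrocyte list, *Aqp4* and *Ndrg2*, which astrocytes also express, were chosen after their values were seen. *Aqp4*, the water channel of astrocyte endfeet, was at 22.6, 51.7 and 26.6 CPM at 72 h and 1.59, 6.36 and 6.49 CPM at 2 weeks (-2.78 ± 0.59, adjusted p = 0.0049). *Ndrg2* changed by -1.54 ± 0.35, and its call was lost without FT 2 week replicate 1.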
